A study of Homo sapiens with 15 samples.

Results

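Immediate early genes of the NR4A, EGR and IER families were read in cells of IGROV-CP20, a cisplatin-resistant ovarian cancer cell line. The 10 genes, out of 47634 gene identifiers in each count table, were NR4A1, NR4A2, NR4A3, EGR1, EGR2, EGR3, IER2, IER3, IER5 and IER5L. They were picked by name, because NR4A2 and IER5 had much higher levels with cisplatin than in untreated cells, so that comparison is given below as a description with no test. Messenger RNA was measured by QuantSeq, which sequences a fragment near the 3′ end of each polyadenylated transcript. The 15 libraries came from 5 conditions with 3 biological replicates each. Untreated cells received neither drug nor platinum. Another set received 50 µM cisplatin for 24 h. The other sets were kept for 24 h in 10 µM Telmisartan, Tranilast or Amphotericin B and then received 50 µM cisplatin for 24 h, and Telmisartan, Tranilast and Amphotericin B name these combined treatments throughout. No condition with a drug but without cisplatin was analysed here, so the action of a drug and its effect on the response to cisplatin cannot be told apart.

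Immediate early genes are transcribed within minutes of a stimulus without new protein synthesis, because the transcription factors that switch them on, such as SRF with its ternary complex partners and CREB, are already present and are activated by kinases. The NR4A proteins are orphan nuclear receptors that act without a known hormone, and the EGR proteins are zinc finger transcription factors that are rapidly made after growth factor signals. The IER genes were named for the speed of their response, and IER5 is known to recruit the phosphatase PP2A to the heat shock factor HSF1. Many of these genes also respond to DNA damage and other stress, and cisplatin damages DNA by forming platinum adducts.

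Promoter sequences are shown for the members whose levels the results turn on, as far as the RefSeq promoter table matched them by symbol. It held 10 promoters for 7 of the 10 genes, and NR4A2, EGR3 and IER3 were not among them. Each sequence holds the 250 bases before the transcription start on the strand of the gene in build GRCh38.p14, from 5′ to 3′. Capitals mark matches, on either strand, to the letters TGACG, the core of the cAMP response element that CREB binds, to GAANNTTC, a short form of the heat shock element, or to the CArG box that SRF binds. The NR4A3 window is chr9:99821635-99821884 on the plus strand, the EGR1 window chr5:138465229-138465478 on the plus strand, the IER5 window chr1:181088450-181088699 on the plus strand and the IER5L window chr9:129178262-129178511 on the minus strand.
NR4A3: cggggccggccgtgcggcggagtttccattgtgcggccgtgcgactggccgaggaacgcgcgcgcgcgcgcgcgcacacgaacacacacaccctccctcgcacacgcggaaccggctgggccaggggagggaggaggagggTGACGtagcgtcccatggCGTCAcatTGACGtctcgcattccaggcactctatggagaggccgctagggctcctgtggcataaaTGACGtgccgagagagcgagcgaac
EGR1: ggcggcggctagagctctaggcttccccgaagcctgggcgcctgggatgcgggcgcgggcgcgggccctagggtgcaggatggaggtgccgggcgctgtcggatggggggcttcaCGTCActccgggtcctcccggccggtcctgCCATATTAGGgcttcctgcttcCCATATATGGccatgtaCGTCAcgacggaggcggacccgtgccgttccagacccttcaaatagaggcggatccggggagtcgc
IER5: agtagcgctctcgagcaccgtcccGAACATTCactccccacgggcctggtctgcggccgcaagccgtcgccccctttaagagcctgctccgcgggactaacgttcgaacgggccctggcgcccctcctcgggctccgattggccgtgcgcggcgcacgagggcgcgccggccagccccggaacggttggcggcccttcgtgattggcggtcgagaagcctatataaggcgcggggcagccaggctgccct
IER5L: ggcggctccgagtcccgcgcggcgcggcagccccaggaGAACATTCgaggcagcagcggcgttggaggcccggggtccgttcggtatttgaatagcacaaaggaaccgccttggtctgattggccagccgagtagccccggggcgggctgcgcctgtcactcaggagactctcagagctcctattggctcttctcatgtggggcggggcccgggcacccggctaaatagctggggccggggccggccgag
The NR4A3 window held 4 copies of TGACG, at 109, 91, 83 and 25 bases before the start. The EGR1 window held 2 copies of TGACG, at 135 and 66 bases before the start, and 2 CArG boxes, at 105 and 83 bases. The IER5 and IER5L windows held no TGACG and no CArG box, and each held 1 match to GAANNTTC, with the letters GAACATTC, at 226 bases before the start of IER5 and at 212 bases before that of IER5L. Of the promoters not printed, that of IER2 had 1 TGACG, 1 of the 3 EGR2 promoters had 2 copies of TGACG and 1 CArG box, and both NR4A1 promoters had no match. In all 35116 windows of the same length, TGACG occurred in 21.2%, the CArG box in 1.16% and GAANNTTC in 5.78%. The full element TGACGTCA, which contains TGACG, occurred in 1.65% of all windows, the EGR site GCGTGGGCG in 0.72% and the NR4A site AAAGGTCA in 1.05%, and none of these 3 was found in the 10 member promoters. GAANNTTC was added to the search after the sequences had been seen, and a match describes letters only.

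Total counts per library were 2691832 to 3392054 in untreated cells, 2171154 to 2488037 with cisplatin, 2211259 to 2983548 with Telmisartan, 2164344 to 3517041 with Tranilast and 1510620 to 1872639 with Amphotericin B. Levels are given as normalized CPM, counts as a share of a library size that was scaled by TMM factors, and 3 counts corresponded to between 0.853 and 1.99 CPM before that scaling. The share of counts on the mitochondrial ribosomal RNAs was 1.79% to 2.20% in untreated cells, 3.41% to 13.7% with cisplatin, 3.61% to 12.9% with Telmisartan, 2.10% to 2.53% with Tranilast and 12.3% to 14.8% with Amphotericin B. Cisplatin replicate 1 (13.7%) and Telmisartan replicate 3 (3.61%) stood apart from the other replicates of their condition, and results without them are given for part of the comparisons. Of 10 epithelial and ovarian carcinoma markers, 5 had a mean of at least 1 CPM, namely KRT8, KRT18, KRT19, EPCAM and CDH1. The others, KRT7, PAX8, WT1, MUC16 and CLDN4, each had at most 4 counts over all libraries. The endothelial genes VWF and CDH5 were listed at 0. The 4 leukocyte markers summed to 65.0 to 76.9 CPM in untreated cells, nearly all of it PTPRC, and to 4.37 to 22.6 CPM in treated libraries, with CD3E at 0. The 4 fibroblast markers summed to 7.89 to 9.50 CPM in untreated and 15.3 to 40.6 CPM in treated libraries. The part of these markers in the results was not tested. In bulk RNA, fewer cells that express a gene and less RNA of it in each cell cannot be told apart.

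**Figure D1:**
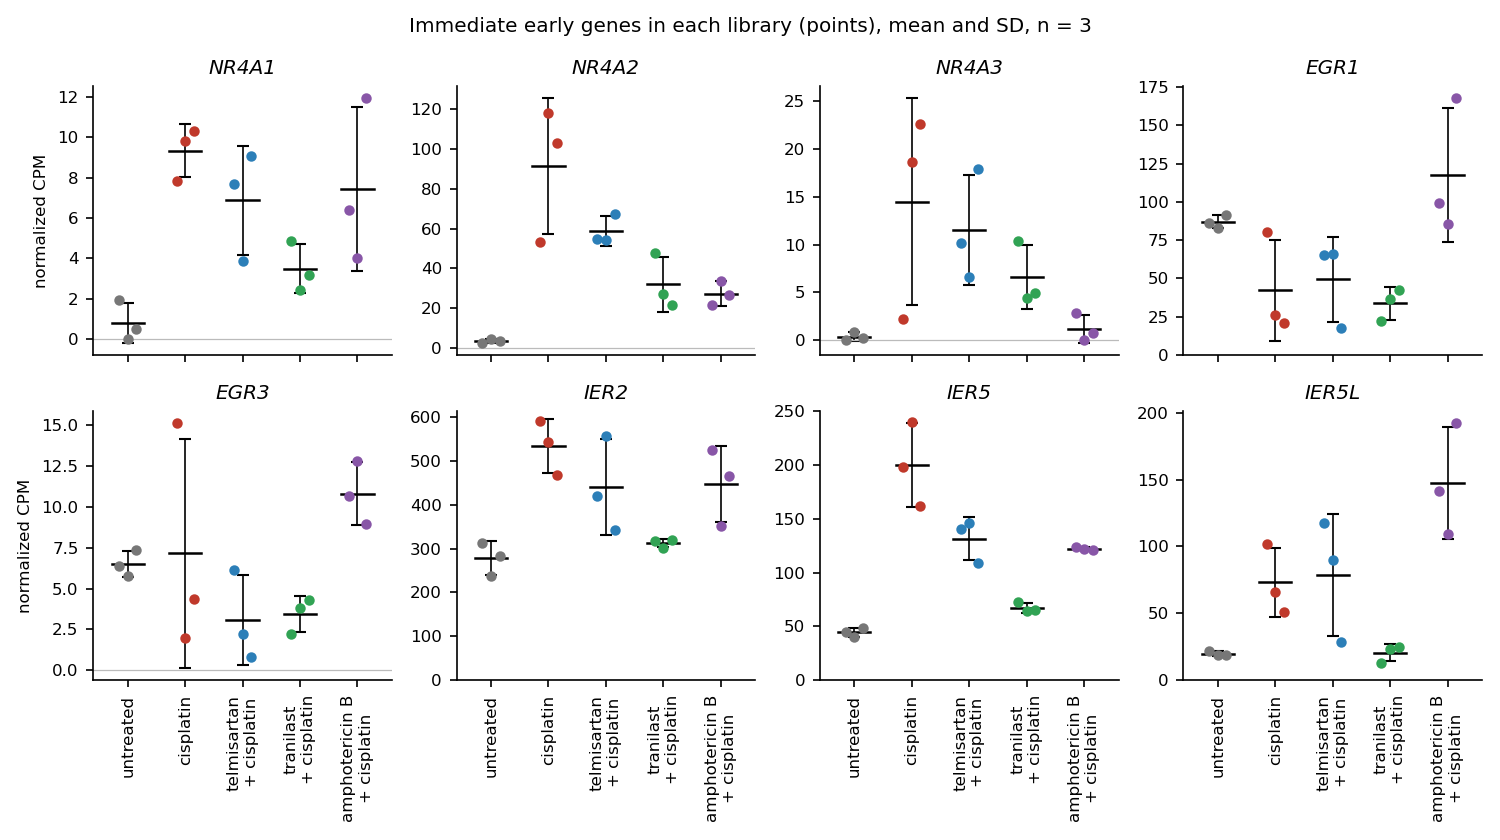
Normalized CPM (vertical axes, linear) of the 8 members that passed the filter on low counts, by condition, with 1 point for each library, a line for the mean and bars for the SD (n = 3). IER5 lay between 162 and 240 CPM with cisplatin and between 64.1 and 72.6 CPM with Tranilast, and NR4A3 was low in cisplatin replicate 1 (2.24 CPM) beside the other cisplatin libraries (18.6 and 22.6 CPM).

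Of the 10 members, 8 were among the 11113 genes tested. EGR2 had at most 3 counts in any library and IER3 was listed at 0 in all libraries, so neither passed the filter on low counts. The filter kept genes with enough counts in at least 3 libraries of any condition, and counts over the remaining 8 say nothing about the 2 that failed. NR4A1, with 6, 0 and 2 counts in untreated libraries, passed through treated libraries. NR4A3, with 0, 3 and 1 counts untreated and 4, 0 and 1 with Amphotericin B, passed through the other libraries. Member counts that set those low conditions against others therefore include genes kept for their levels in the others. All differences between conditions were tested with edgeR's quasi-likelihood test, and the adjusted p of every tested gene was corrected by the method of Benjamini and Hochberg over the 11113 genes.

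With Tranilast, NR4A1, NR4A2, IER2, IER5 and IER5L had lower levels than with cisplatin alone, by between 1.71-fold and 3.51-fold. These 5 of 8 members passed an adjusted p of 0.05, where 22.2% of all genes tested did (10.5% higher and 11.6% lower). With Amphotericin B, NR4A2, NR4A3 and IER5 were lower and EGR1 was higher than with cisplatin alone, 4 of 8 members where 13.2% of all genes passed, 4.21% higher and 9.01% lower. With Telmisartan 0 of 8 members passed, where 0% of the 11113 genes did and 1150 genes had an unadjusted p under 0.05. In that edgeR comparison 2 members, IER5 and NR4A2, had an unadjusted p under 0.05, and DESeq2 and limma-voom each called 0 members. The 3 comparisons share the same 3 cisplatin libraries with each other and with the choice of the genes, so they are not independent of each other or of that choice.

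The direct comparisons between drugs use neither the cisplatin nor the untreated libraries in their contrast, although all 15 libraries share 1 estimate of the spread. EGR1, EGR3, IER5 and IER5L were lower with Tranilast than with Amphotericin B, 4 of 8 members where 36% of all genes passed (19.7% higher and 16.4% lower). IER5 and IER5L were lower with Tranilast than with Telmisartan, 2 of 8 members where 2.34% of all genes passed (0.585% higher and 1.75% lower). Between Telmisartan and Amphotericin B 0 members and 0% of all genes passed in edgeR, with 2283 genes at an unadjusted p under 0.05. Unadjusted p values under 0.05 were found there for 5 members (EGR1, EGR3, IER5L, NR4A2 and NR4A3), of which DESeq2 called 1 and limma-voom called 0. Without cisplatin replicate 1, which is in neither group, NR4A2, NR4A3, EGR1 and EGR3 passed there in edgeR. Their adjusted p values were 0.0242, 0.0171, 0.0407 and 0.0351, and the share of all genes in that fit is not given here.

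**Figure D2:**
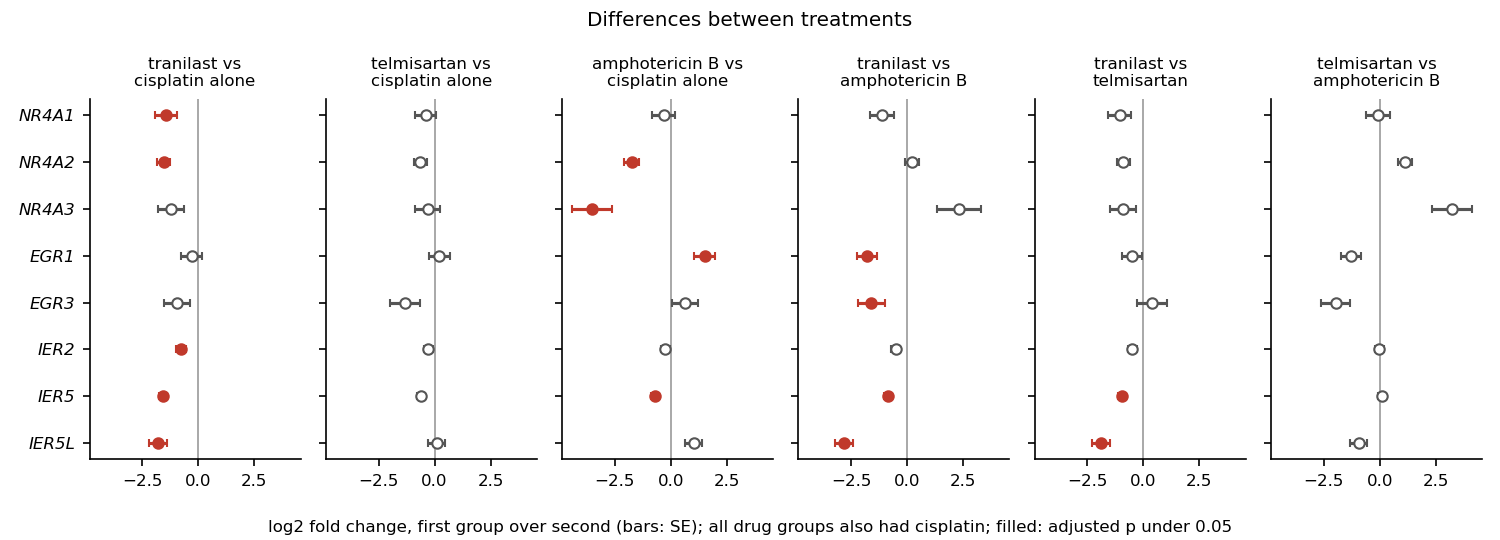
Log2 fold change (horizontal axes) with its SE for the 8 tested members in 6 comparisons, the first named treatment over the second. Filled points passed an adjusted p of 0.05 in edgeR's quasi-likelihood test, 5 for Tranilast against cisplatin, 4 for Amphotericin B against cisplatin, 4 for Tranilast against Amphotericin B and 2 for Tranilast against Telmisartan.

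NR4A2 (ENSG00000153234, chromosome 2, minus strand), also known as NURR1 and required for the formation of midbrain dopamine neurons, had the highest levels with cisplatin and the lowest in untreated cells. It had 2.55, 4.32 and 3.56 CPM in the untreated libraries, 53.2, 118 and 103 CPM with cisplatin, 54.6, 54.1 and 67.4 CPM with Telmisartan, 47.6, 27.0 and 21.4 CPM with Tranilast and 21.3, 33.7 and 26.8 CPM with Amphotericin B. Every library with cisplatin lay above every untreated library, and the lowest cisplatin library, replicate 1, lay above all Tranilast and Amphotericin B libraries. The fitted difference between cisplatin and untreated cells, which chose the gene, was 4.70 ± 0.37 on the log2 scale (SE). The level with Tranilast was 2.90-fold lower than with cisplatin (log2 fold change -1.54, SE 0.30, adjusted p = 0.0031), and with Amphotericin B 3.37-fold lower (log2 fold change -1.75, SE 0.32, adjusted p = 0.00453). In the order of mean levels, from cisplatin (91.6 ± 34.1 CPM, SD, n = 3) through Telmisartan (58.7 ± 7.55), Tranilast (32.0 ± 13.8) and Amphotericin B (27.3 ± 6.19) to untreated cells (3.48 ± 0.886), no difference between neighbours among the 4 treated conditions passed the test. The adjusted p was 0.457 for Telmisartan against cisplatin, 0.0911 for Tranilast against Telmisartan and 0.625 for Tranilast against Amphotericin B. Without cisplatin replicate 1, Tranilast against Telmisartan had an adjusted p of 0.0224 in edgeR. The Tranilast and Amphotericin B differences from cisplatin passed under all 26 alternatives, with log2 fold changes from -1.92 to -1.13 and from -2.03 to -1.28. Both comparisons share the cisplatin libraries with the choice of NR4A2. The alternatives refit the same data and do not remove that dependence.

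NR4A1 (ENSG00000123358, chromosome 12, plus strand), also known as Nur77 and an early gene of T cell receptor signalling, had fewer counts. It had 1.91, 0 and 0.509 CPM in untreated libraries (6, 0 and 2 counts), 7.84, 9.81 and 10.3 CPM with cisplatin, 7.65, 3.87 and 9.08 CPM with Telmisartan, 4.84, 2.45 and 3.16 CPM with Tranilast and 6.40, 4.01 and 11.9 CPM with Amphotericin B. The treated libraries all lay above the untreated ones, and the Tranilast libraries did not overlap those with cisplatin. NR4A1 was 2.74-fold lower with Tranilast than with cisplatin (log2 fold change -1.45, SE 0.50, adjusted p = 0.0441 in edgeR). That call ended when any of 8 libraries was left out (untreated replicate 3, cisplatin replicates 2 and 3, Telmisartan replicate 1, each Tranilast replicate or Amphotericin B replicate 1), with adjusted p values in edgeR from 0.0516 to 0.157. The adjusted p for NR4A1 was 0.83 with Telmisartan and 0.694 with Amphotericin B, and the 95% intervals of the log2 difference from cisplatin ran from -1.46 to 0.66 and from -1.47 to 0.82.

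NR4A3 (ENSG00000119508, chromosome 9, plus strand), also known as NOR1, had at most 4 counts in any library of untreated cells or of cells given Amphotericin B. Its counts were 0, 3 and 1 in the untreated libraries and 4, 0 and 1 with Amphotericin B, against 4, 38 and 57 with cisplatin, 20, 12 and 65 with Telmisartan and 28, 16 and 22 with Tranilast. In normalized units this was 2.24, 18.6 and 22.6 CPM with cisplatin, 10.2, 6.63 and 17.9 CPM with Telmisartan, 10.4, 4.36 and 4.96 CPM with Tranilast and 2.84, 0 and 0.745 CPM with Amphotericin B. Cisplatin replicate 1 lay within the range of the Amphotericin B libraries, and those libraries overlapped the untreated ones. NR4A3 was lower with Amphotericin B than with cisplatin (log2 fold change -3.53, SE 0.89, adjusted p = 0.0176). That call ended without cisplatin replicate 2 or 3 or without Amphotericin B replicate 2 or 3, with adjusted p values in edgeR from 0.0593 to 0.0805. With Tranilast the log2 fold change against cisplatin was -1.22 (SE 0.58, adjusted p = 0.133), and without cisplatin replicate 1 it was -1.69 (SE 0.45, adjusted p = 0.0109). Tranilast and Amphotericin B differed by 2.31 on the log2 scale (SE 0.97, adjusted p = 0.0691), with all Tranilast libraries above all Amphotericin B libraries.

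Summed over the family, NR4A levels were 4.66 ± 0.458 CPM in untreated cells, 115 ± 45.4 CPM with cisplatin, 77.2 ± 15.4 CPM with Telmisartan, 42.1 ± 18.1 CPM with Tranilast and 35.9 ± 4.72 CPM with Amphotericin B (SD, n = 3). The log2 levels of NR4A2 correlated with those of NR4A1 (r = 0.83) and NR4A3 (r = 0.79) over the 15 libraries, as a description of libraries that share their conditions.

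EGR1 (ENSG00000120738, chromosome 5, plus strand), a target of the ERK pathway through SRF, had a different order of levels. It had 86.1, 83.2 and 91.6 CPM in untreated libraries, 80.1, 26.0 and 20.7 CPM with cisplatin, 65.3, 65.7 and 17.6 CPM with Telmisartan, 22.0, 36.5 and 42.7 CPM with Tranilast and 99.6, 85.8 and 168 CPM with Amphotericin B. All cisplatin, Telmisartan and Tranilast libraries lay below the untreated ones, while cisplatin replicate 1 lay near them, and the Amphotericin B libraries overlapped them. EGR1 was 2.83-fold higher with Amphotericin B than with cisplatin (log2 fold change 1.5, SE 0.47, adjusted p = 0.0417) and 3.46-fold lower with Tranilast than with Amphotericin B (log2 fold change -1.79, SE 0.46, adjusted p = 0.00712). Without cisplatin replicate 1 the difference between Amphotericin B and cisplatin was 2.38 (SE 0.44, adjusted p = 0.000616), and it lost its call without any of 10 other libraries (each untreated or Amphotericin B replicate, cisplatin or Tranilast replicates 2 and 3), at adjusted p values in edgeR from 0.0513 to 0.184. Tranilast and cisplatin differed by -0.29 (SE 0.47, adjusted p = 0.688), and by 0.57 (SE 0.43, adjusted p = 0.348) without cisplatin replicate 1.

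EGR3 (ENSG00000179388, chromosome 8, minus strand), which acts in muscle spindle formation and T cells, had 6.38, 5.75 and 7.38 CPM in untreated libraries, 15.1, 1.96 and 4.37 CPM with cisplatin, 6.12, 2.21 and 0.826 CPM with Telmisartan, 2.23, 3.82 and 4.29 CPM with Tranilast and 10.7, 12.8 and 8.94 CPM with Amphotericin B. The Amphotericin B libraries lay above all untreated, Telmisartan and Tranilast libraries, and cisplatin replicate 1 was the single library above all of them. EGR3 was 3.02-fold lower with Tranilast than with Amphotericin B (log2 fold change -1.59, SE 0.59, adjusted p = 0.0426), a call that ended without any of 9 libraries, namely each untreated, Tranilast or Amphotericin B replicate, at adjusted p values in edgeR from 0.0552 to 0.118. Amphotericin B and cisplatin differed by 0.65 (SE 0.58, adjusted p = 0.463), and by 1.76 (SE 0.57, adjusted p = 0.0241) without cisplatin replicate 1. EGR2 (ENSG00000122877, chromosome 10, minus strand), which directs myelination by Schwann cells, had 12 counts over all libraries and none in 8 of them, which is too few to compare conditions. EGR1 and EGR3 correlated over the 15 libraries (r = 0.78), and EGR1 ran opposite to NR4A3 (r = -0.82), again as a description.

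IER5 (ENSG00000162783, chromosome 1, plus strand) had its highest levels with cisplatin and, of the treated conditions, its lowest with Tranilast. It had 44.3, 40.3 and 48.6 CPM in untreated libraries, 198, 240 and 162 CPM with cisplatin, 140, 146 and 109 CPM with Telmisartan, 72.6, 64.1 and 65.2 CPM with Tranilast and 124, 122 and 121 CPM with Amphotericin B. The cisplatin libraries lay above those of every other condition, the Tranilast libraries lay between the untreated libraries and all others, and the Telmisartan and Amphotericin B libraries overlapped. The fitted difference between cisplatin and untreated cells, which chose the gene, was 2.17 ± 0.18 on the log2 scale (SE). IER5 was 2.98-fold lower with Tranilast than with cisplatin (log2 fold change -1.57, SE 0.18, adjusted p = 0.000404) and 1.64-fold lower with Amphotericin B (log2 fold change -0.71, SE 0.18, adjusted p = 0.0169). With Telmisartan the difference from cisplatin was -0.61 (SE 0.18, 95% interval -1.0 to -0.22), with an adjusted p of 0.302 in edgeR over all genes, although the libraries did not overlap. IER5 was also 1.82-fold lower with Tranilast than with Amphotericin B (log2 fold change -0.86, SE 0.18, adjusted p = 0.00229) and 1.95-fold lower than with Telmisartan (log2 fold change -0.97, SE 0.18, adjusted p = 0.0412). Telmisartan and Amphotericin B differed by 0.11 (95% interval -0.29 to 0.50, adjusted p = 0.755).

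The Tranilast difference of IER5 from cisplatin passed under all 26 alternatives. That comparison shares the cisplatin libraries with the choice of IER5, a dependence that the alternatives do not remove. The Amphotericin B difference from cisplatin ended without cisplatin replicate 2 or without Amphotericin B replicate 3, at adjusted p values in edgeR from 0.0711 to 0.122. The difference of IER5 between Tranilast and Telmisartan ended without any of 11 libraries, namely each untreated, Tranilast or Amphotericin B replicate and Telmisartan replicates 1 and 2, at adjusted p values in edgeR from 0.0563 to 0.247 and log2 fold changes from -1.02 to -0.88. Without cisplatin replicate 1 the adjusted p of that difference was 0.00579 in edgeR.

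IER5L (ENSG00000188483, chromosome 9, minus strand), a paralog of IER5, had 22.0, 18.7 and 18.8 CPM in untreated libraries, 102, 66.2 and 51.2 CPM with cisplatin, 117, 90.0 and 28.6 CPM with Telmisartan, 13.0, 23.4 and 24.8 CPM with Tranilast and 142, 109 and 192 CPM with Amphotericin B. The Amphotericin B libraries lay above those with cisplatin, and the Tranilast libraries overlapped the untreated ones and lay below all others. IER5L was 3.51-fold lower with Tranilast than with cisplatin (log2 fold change -1.81, SE 0.40, adjusted p = 0.0053), 7.12-fold lower than with Amphotericin B (log2 fold change -2.83, SE 0.40, adjusted p = 0.000808) and 3.74-fold lower than with Telmisartan (log2 fold change -1.90, SE 0.40, adjusted p = 0.0412). The first of these passed under all 26 alternatives. The last ended without the same 11 libraries as IER5, at log2 fold changes from -2.06 to -1.47 and adjusted p values in edgeR from 0.0563 to 0.247. Without cisplatin replicate 1 its adjusted p in edgeR was 0.00672. Amphotericin B and cisplatin differed by 1.02 (SE 0.38, adjusted p = 0.0759), and by 1.38 (SE 0.40, adjusted p = 0.0126) without cisplatin replicate 1. Genes annotated on the opposite strand, AL158151.3 and AL158151.1, overlap IER5L and had 16 and 13 counts over all libraries, against 1975 for IER5L. How strand was used in counting is not given in the sources used here.

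IER2 (ENSG00000160888, chromosome 19, plus strand), an early response gene linked to cell motility, had 314, 237 and 283 CPM in untreated libraries, 591, 543 and 469 CPM with cisplatin, 421, 558 and 343 CPM with Telmisartan, 318, 302 and 319 CPM with Tranilast and 524, 352 and 467 CPM with Amphotericin B. The Tranilast libraries lay below all other treated libraries and overlapped the untreated ones. IER2 was 1.71-fold lower with Tranilast than with cisplatin (log2 fold change -0.77, SE 0.20, adjusted p = 0.0128), and the adjusted p in edgeR was between 0.051 and 0.0563 without Tranilast replicate 2 or 3. Tranilast and Amphotericin B differed by -0.52 (SE 0.20, adjusted p = 0.0541), while Amphotericin B and cisplatin differed by -0.25 (95% interval -0.71 to 0.20, adjusted p = 0.404).

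IER3 (ENSG00000137331, chromosome 6, minus strand), a target of NF-κB and p53, was listed at 0 in all 15 libraries. Of the 124 protein-coding genes within 1.5 Mb on either side of its start, IER3 itself included, 77 (62.1%) were listed at 0 in all libraries. On the autosomes 19.1% of 18227 protein-coding genes were. TUBB, a tubulin gene of that region that dividing cells use, had 65 counts in all, while TUBA1B had 44048. The zero of IER3 is therefore given as a listing and not as an expression level.

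The comparison that chose the genes is given as a description. With cisplatin, 6 members had all libraries above all untreated libraries, namely NR4A1, NR4A2, NR4A3, IER2, IER5 and IER5L, and EGR1 had all libraries below them, where 24% and 29.5% of all genes tested did so. The fitted log2 differences, which for NR4A1 and NR4A3 rest on 8 and 4 untreated counts in all, were 3.53 for NR4A1, 5.13 for NR4A3, 1.87 for IER5L, 0.94 for IER2, 0.08 for EGR3 and -1.07 for EGR1, beside those of NR4A2 and IER5 given above. Against untreated cells, the Tranilast libraries were higher for 4 members, NR4A1, NR4A2, NR4A3 and IER5, while IER2 and IER5L overlapped with differences of 0.17 and 0.06 and EGR1 and EGR3 were lower, where 21.1% of all genes tested lay higher and 25.1% lower without overlap. Telmisartan libraries were higher for the same 6 members as with cisplatin and lower for EGR1, where 18.4% and 26.3% of all genes were. The Amphotericin B libraries were higher for NR4A1, NR4A2, EGR3, IER2, IER5 and IER5L and lower for none, where 23.4% of all genes were higher and 35.3% lower, and the difference of IER5L was 2.90 (SE 0.40). The comparisons with untreated cells share the 3 untreated libraries.

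EGR1, IER5L and the mitochondrial ribosomal RNA varied together among the treated libraries. The 6 treated libraries with 10.8% to 14.8% of their counts on mitochondrial ribosomal RNA, which are the Amphotericin B libraries, cisplatin replicate 1 and Telmisartan replicates 1 and 2, had EGR1 levels of 65.3 to 168 CPM and IER5L levels of 90.0 to 192 CPM. The other 6 treated libraries, with 2.10% to 5.61%, had 17.6 to 42.7 CPM and 13.0 to 66.2 CPM. Within cisplatin, replicate 1 had 80.1 CPM of EGR1 and 2.24 CPM of NR4A3, whereas replicates 2 and 3 had 26.0 and 20.7 CPM of EGR1 and 18.6 and 22.6 CPM of NR4A3. Untreated libraries had little mitochondrial ribosomal RNA and 83.2 to 91.6 CPM of EGR1. With this share as a covariate, a fit chosen after seeing the data, the difference between Tranilast and Amphotericin B was 0.62 for EGR1 (SE 0.34, adjusted p = 0.444), -1.17 for IER5L (SE 0.38, adjusted p = 0.153) and -0.57 for IER5 (SE 0.25, adjusted p = 0.297). The Tranilast differences from cisplatin in the same fit were -1.88 for NR4A2 (SE 0.24, adjusted p = 5.75e-06), -1.44 for IER5 (SE 0.17, adjusted p = 3.14e-06) and -0.97 for IER5L (SE 0.27, adjusted p = 0.00778). In this fit the Tranilast difference of EGR1 from cisplatin was 1.10 (SE 0.26, adjusted p = 0.00231), of opposite sign to that without the covariate. The Amphotericin B differences from cisplatin were 0.48 for EGR1 (SE 0.24, adjusted p = 0.258) and -2.04 for NR4A3 (SE 0.84, adjusted p = 0.153), and IER5L differed between Tranilast and Telmisartan by -0.76 (SE 0.30, adjusted p = 0.159). All Amphotericin B libraries had a high share and all Tranilast libraries a low one, so drug and share cannot be told apart between them. The Tranilast shares, 2.10% to 2.53%, also lay below all cisplatin shares, 3.41% to 13.7%, without overlap. The covariate fit of Tranilast against cisplatin therefore rests on the slope within conditions, extended beyond the shares observed in each. Its adjusted p values do not separate drug from share.

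**Figure D3:**
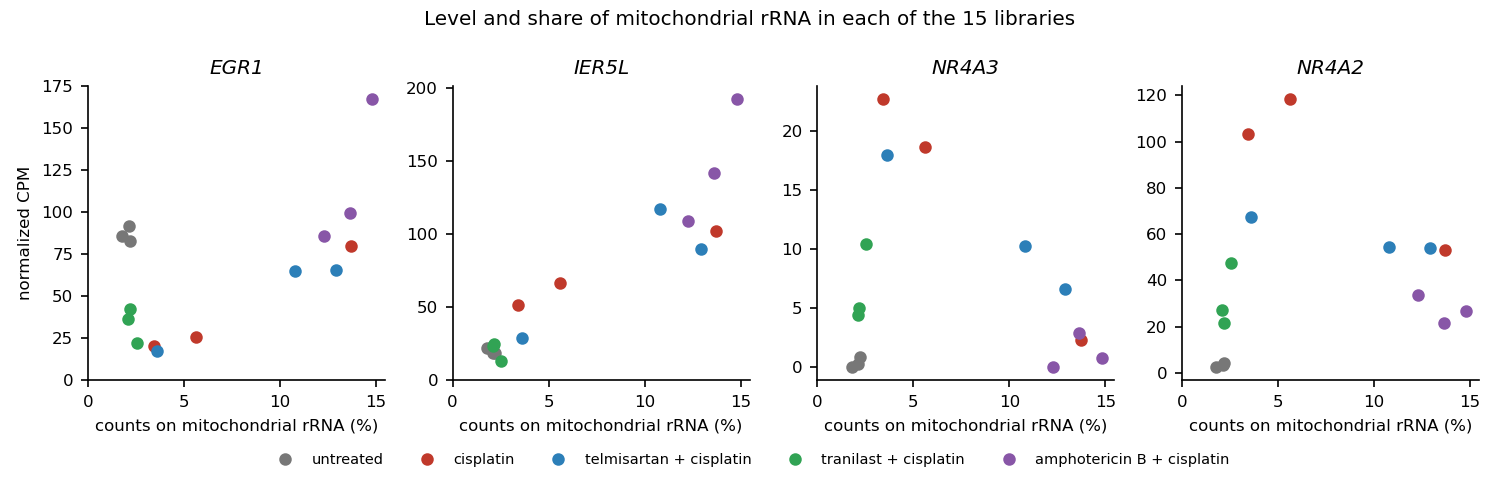
Normalized CPM of EGR1, IER5L, NR4A3 and NR4A2 (vertical axes) against the share of counts on mitochondrial ribosomal RNA in percent (horizontal axes), with 1 point for each of the 15 libraries, coloured by condition. Cisplatin replicate 1, at 13.7%, had 80.1 CPM of EGR1 and lay with the Amphotericin B libraries (12.3% to 14.8%), apart from the cisplatin libraries at 5.61% and 3.41%.

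Without cisplatin replicate 1 and Telmisartan replicate 3, an alternative chosen after seeing the data, more members separated Telmisartan from cisplatin. In that fit 5 members passed. The share of all genes that passed in it is not given here, so the count is not read as particular to these members. NR4A2 (log2 fold change -1.03, SE 0.24, adjusted p = 0.00208), NR4A3 (-1.29, SE 0.44, adjusted p = 0.0303) and IER5 (-0.49, SE 0.17, adjusted p = 0.0303) were lower, and EGR1 (1.5, SE 0.28, adjusted p = 0.000272) and IER5L (0.83, SE 0.23, adjusted p = 0.00886) were higher with Telmisartan in edgeR. The 2 remaining Telmisartan libraries had 10.8% and 12.9% of their counts on mitochondrial ribosomal RNA and the 2 remaining cisplatin libraries 5.61% and 3.41%, and the part of this share in the difference was not tested.

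Of 40 other immediate early genes, 38 were matched and 29 tested. This list and those below were drawn up with earlier results of these data known. Their comparisons with cisplatin also share the 3 cisplatin libraries behind the choice of the members. With Tranilast 12 were lower and 2 higher than with cisplatin (48.3% of the list, where 22.2% of all genes passed), with a median log2 fold change of -0.55 against 0.02 over all genes tested. JUN, a subunit of the AP-1 factor, had a mean of 89.3 CPM in untreated cells, 451 CPM with cisplatin and 155 CPM with Tranilast (log2 fold change -1.54, SE 0.29, adjusted p = 0.00265), and the AP-1 gene FOSB, named after its values were seen, fell by 2.35 (SE 0.33, adjusted p = 0.00114). SRF was 0.95 lower (SE 0.22, adjusted p = 0.00721), GADD45B, a stress sensor gene, 1.34 lower (SE 0.44, adjusted p = 0.0362) and ZFP36L1, an mRNA decay factor, 0.55 lower (SE 0.18, adjusted p = 0.0379). DUSP6, the phosphatase that inactivates ERK, was higher (log2 fold change 1.15, SE 0.30, adjusted p = 0.0126), at 206 CPM against 93.4 CPM with cisplatin and 498 CPM in untreated cells, and JUND, named after its values were seen, was the other gene that was higher. With Telmisartan 0 of 29 passed, as 0 of all genes tested did.

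With Amphotericin B 3 of the 29 other immediate early genes were higher and 5 lower than with cisplatin (27.6% of the list, where 13.2% of all genes passed), with a median of -0.22 against -0.04 over all genes. GADD45B was higher (log2 fold change 1.74, SE 0.41, adjusted p = 0.0125) and so was FOS, named after its values were seen, with a mean of 75.4 CPM against 14.2 CPM (log2 fold change 2.44, SE 0.58, adjusted p = 0.0135). SRF was lower (log2 fold change -2.10, SE 0.24, adjusted p = 0.000306), with a mean of 52.7 CPM against 226 CPM with cisplatin and 96.3 CPM in untreated cells. Between Tranilast and Amphotericin B 8 genes of the list were lower with Tranilast and 6 higher (48.3%, where 36% of all genes passed), FOS by -4.41 (SE 0.65, adjusted p = 0.000808) and GADD45B by -3.09 (SE 0.43, adjusted p = 0.000808). Between Tranilast and Telmisartan 5 were lower and 0 higher, where 2.34% of all genes passed, and between Telmisartan and Amphotericin B 0 passed. Between cisplatin and untreated cells, the comparison that chose the members, the median log2 difference of the 29 genes was 1.15 against -0.01 over all genes, given as a description.

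Of the regulators upstream of these genes, 21 were tested. With Tranilast 6 were higher than with cisplatin and 1, SRF, which is also on the list above, was lower, 33.3% of the list where 22.2% of all genes passed. RPS6KA3, which encodes the ERK-activated kinase RSK2, was higher with Tranilast than with cisplatin (log2 fold change 0.92, SE 0.23, adjusted p = 0.0091), with Amphotericin B (1.03, SE 0.23, adjusted p = 0.00353) and with Telmisartan (0.94, SE 0.22, adjusted p = 0.0438), at a mean of 77.5 CPM against 41.1, 37.9 and 39.9 CPM, and it had 101 CPM in untreated cells. With Amphotericin B 3 regulators were higher and 3 lower than with cisplatin, 28.6% of the list where 13.2% of all genes passed. MAP2K2, the kinase MEK2, was higher (log2 fold change 0.85, SE 0.21, adjusted p = 0.0169), as was RPS6KA4, the kinase MSK2 (log2 fold change 0.81, SE 0.25, adjusted p = 0.0418). Between Tranilast and Amphotericin B 8 were higher and 3 lower with Tranilast (52.4% of the list where 36% of all genes passed), between Tranilast and Telmisartan 1 was higher (4.76% against 2.34%), and in the other 2 comparisons 0 passed.

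Among 11 tested partners of the 3 families, which were the NAB corepressors of EGR proteins, RXR partners of NR4A receptors, PP2A subunits and HSF1, 2 were higher with Tranilast than with cisplatin and 2 lower with Amphotericin B. Each is 18.2% of the list, where 22.2% and 13.2% of all genes passed, so these shares lay near those of all genes. RXRA, the retinoid X receptor that pairs with NR4A1 and NR4A2, had 48.9 CPM in untreated cells, 17.1 CPM with cisplatin and 54.6 CPM with Tranilast (log2 fold change against cisplatin 1.64, SE 0.34, adjusted p = 0.00393). The catalytic PP2A genes PPP2CA (log2 fold change -0.62, SE 0.20, adjusted p = 0.0446) and PPP2CB (-1.10, SE 0.19, adjusted p = 0.00406) were lower with Amphotericin B than with cisplatin, while the regulatory subunit gene PPP2R2A differed by -0.34 (SE 0.20, adjusted p = 0.25). HSF1 itself had mean levels between 51.8 and 64.2 CPM in the 5 conditions. Between Tranilast and Amphotericin B 4 partners were higher and 1 lower with Tranilast (45.5% against 36% of all genes), and between Tranilast and Telmisartan 1 was higher (9.09% against 2.34%).

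Of 10 heat shock genes that HSF1 drives, 6 were tested, and HSPA1A and HSPA1B, which lie on chromosome 6 like IER3, were listed at 0. With Tranilast 3 were lower than with cisplatin (50% of the 6, where 22.2% of all genes passed), the chaperone gene HSPA8 by -1.40 (SE 0.40, adjusted p = 0.0197), the mitochondrial chaperonin gene HSPE1 by -1.38 (SE 0.36, adjusted p = 0.0123) and BAG3, named after its values were seen, by -0.85 (SE 0.26, adjusted p = 0.0249). HSPA8 had means of 24.8 CPM in untreated cells, 86.0 CPM with cisplatin, 128 CPM with Telmisartan, 32.3 CPM with Tranilast and 197 CPM with Amphotericin B, and it was higher with Amphotericin B than with cisplatin (log2 fold change 1.21, SE 0.39, adjusted p = 0.0473). Between Tranilast and Amphotericin B 3 were lower with Tranilast (50% against 36% of all genes), HSPA8 by -2.61 (SE 0.41, adjusted p = 0.000974), HSPE1 by -1.88 (SE 0.36, adjusted p = 0.00153) and HSPH1 by -0.61 (SE 0.18, adjusted p = 0.0127). HSPD1, the partner of HSPE1, had differences of -0.01, 0.24 and 0.38 from cisplatin with Tranilast, Telmisartan and Amphotericin B, with adjusted p values in edgeR of 0.974, 0.723 and 0.198. DNAJB1 had 109 CPM in untreated cells, 290 CPM with cisplatin and 167 CPM with Tranilast (log2 fold change -0.79, SE 0.31, adjusted p = 0.0756).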

How the data were processed

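RNA of 15 IGROV-CP20 libraries was sequenced with QuantSeq 3′ kits from 100 ng of RNA as 75 bp reads. Per the labels, the authors deposited raw counts per gene for each sample, and their processing notes name STAR 2.3.0, HTSeq and build hg19. The annotation and the use of strand in counting are not given in the sources used here. Gene identifiers were named with GENCODE 29, which gave a symbol to 45455 of 47634.

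Counts of all 15 libraries were fitted together with edgeR 4.0.16 (R 4.3.3) after filterByExpr and TMM scaling, with a quasi-likelihood F test per contrast over 11113 genes and Benjamini-Hochberg adjustment at 0.05. Intervals are 95%. The 26 alternatives included DESeq2 1.42.0, limma-voom (limma 3.58.1), other scalings and filters, a replicate block and omission of each of the 15 libraries, and 2 of them were chosen after seeing the data. The scripts were tested on simulated data. Total counts of 1510620 to 3517041 per library set the precision, and counts of 0 allow up to 3 counts (0.853 to 1.99 CPM). P values rest on an estimate of the spread between biological replicates that was pooled over the 5 conditions with 3 replicates each. They do not measure the spread of the compared conditions alone.

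All 10 members are named. Of each list the 3 tested genes with the highest mean and the 2 with the smallest p are named, and others are marked as chosen after their values were seen. The gene lists held 40 other immediate early genes, 24 upstream regulators, 14 partners and 10 heat shock genes. Members and lists were chosen with earlier results of these data known. Promoters came from RefSeq (GRCh38.p14) and were matched by symbol.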

Additional observations from a re-analysis of the deposited data

Results flagged for a closer look

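The direct comparison of 2 drugs, each given before cisplatin, differed for 6 results. Between Tranilast and Amphotericin B, the log2 difference (Tranilast minus Amphotericin B, edgeR's quasi-likelihood test) was -1.79 for EGR1, -1.59 for EGR3, -0.86 for IER5 and -2.83 for IER5L. Between Tranilast and Telmisartan it was -0.97 for IER5 and -1.90 for IER5L. In all 6 the Tranilast libraries were the lower ones. The share of mitochondrial ribosomal RNA was 2.10% to 2.53% in the Tranilast libraries, 12.3% to 14.8% with Amphotericin B and 3.61% to 12.9% with Telmisartan, and its part in these differences was not tested beyond the covariate fit. No group had 4 or more samples, so no rule was used to screen single libraries against their group. Cisplatin replicate 1 and Telmisartan replicate 3 were singled out after seeing the data.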

How the results depend on the processing

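Under all 26 alternatives NR4A2, IER5 and IER5L stayed lower with Tranilast than with cisplatin, and NR4A2 lower with Amphotericin B. Those comparisons share the cisplatin libraries with the choice of NR4A2 and IER5. Counts of members called were 5 for Tranilast, 0 for Telmisartan and 4 for Amphotericin B against cisplatin, 4 for Tranilast against Amphotericin B, 2 for Tranilast against Telmisartan and 0 for Telmisartan against Amphotericin B. With library size only as scaling, they were 3 for Tranilast against cisplatin (NR4A1 and IER2 lost) and 0 for Tranilast against Telmisartan, and 3 for Tranilast against Amphotericin B, where IER5 (-0.20) and EGR3 were lost and NR4A3 was gained as higher with Tranilast. That scaling moved the median log2 difference of all genes from 0.02 to 0.46 for Tranilast against cisplatin (2582 higher and 397 lower against 1169 and 1293) and from 0.15 to 0.81 for Tranilast against Amphotericin B. At a threshold of 0.01 the counts were 3 for Tranilast and 1 for Amphotericin B against cisplatin and 0 for Tranilast against Telmisartan. With only the 6 libraries of a comparison, 1 passed for Amphotericin B against cisplatin and 0 for Tranilast against Telmisartan. DESeq2 called 7 for Tranilast against Amphotericin B and 1 for Telmisartan against Amphotericin B. Limma-voom called 1 for Tranilast against Telmisartan, and with no filter beyond 1 count 5 passed for Telmisartan against Amphotericin B.

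With mitochondrial ribosomal RNA as covariate, 7 passed for Tranilast (NR4A3 and EGR1 added), 1 for Telmisartan and 2 for Amphotericin B against cisplatin, 0 for Tranilast against Amphotericin B and 4 for Tranilast against Telmisartan. Of 48 member differences in the 6 tested comparisons 13 turned sign there, 9 of them called in neither fit. The other 4 were EGR1 with Tranilast against cisplatin (1.10), Amphotericin B (0.62) and Telmisartan (1.12) and EGR3 with Tranilast against Amphotericin B (0.67). EGR3 with Amphotericin B against untreated cells also turned (-1.57). The range of this share in the Tranilast libraries did not overlap that of any other treated condition, which limits the covariate fit. Without cisplatin replicate 1 and Telmisartan replicate 3, chosen after seeing the data like the covariate, the counts were 6, 5, 6, 6, 5 and 0 in the order above. Leaving out 1 replicate at a time gave 3 to 6, 0 to 0, 1 to 6, 3 to 6, 0 to 3 and 0 to 4 in that order, and 7 to 8 members not overlapping between cisplatin and untreated cells. The share of all genes that passed is given here only for the main fit and, in part, for library size scaling. Changes in the counts of members are therefore not read as particular to them. The causes were not tested.

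Over 30 pairs of samples with the same replicate number, r of their deviations ran from -0.235 to 0.631, and 3 were over 0.1. The highest were cisplatin with Telmisartan at replicate 3 (0.631) and at replicate 1 (0.311), while replicate 2 had -0.174. Whether the numbers pair these conditions was not tested, and the main fit did not pair samples. With the replicate block the counts were 5, 0, 4, 4, 2 and 0. Depth limited NR4A1, NR4A3 and EGR3, with 189, 271 and 212 counts over all libraries, and EGR2 with 12.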

Other observations

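The genes whose log2 levels ran most like NR4A2 over the 15 libraries were UNG (r = 0.968), ORC1 (0.967), KAT2A (0.962), CDK2 (0.961) and E2F1 (0.958). Those most like IER5 were TFAM (r = 0.977), TSEN34 (0.974), ZFAND5 (0.972), MSMO1 (0.971) and SDF2 (0.969). Libraries of a condition share their treatment, so these values describe the 15 libraries only. Between members, IER2 and IER5 had r = 0.90, NR4A2 and IER5 r = 0.86, and NR4A3 and IER5L r = -0.02.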
